A study of Homo sapiens with 14 samples.

Results

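AP-1 is a transcription factor built from basic leucine zipper (bZIP) proteins, and the 8 genes followed here code for its FOS subunits (FOS, FOSB, FOSL1, FOSL2), its JUN subunits (JUN, JUNB, JUND) and the related factor ATF3. They were taken from a fixed list of gene symbols, chosen with earlier results of these data known. All 8 were found among the 24199 features of the DU145 table and among the 44591 genes of the LNCaP table. FOS proteins bind DNA mainly as a dimer with a JUN protein, whereas JUN proteins also pair with each other or with ATF proteins. FOS, FOSB, JUNB and ATF3 belong to the immediate early genes, which growth factor signalling through ERK and the serum response factor, or cellular stress, switches on within minutes, while JUND is present at a steadier level and FOSL1 accumulates under sustained ERK activity. In epithelial cancer cells, AP-1 is known for acting on genes of invasion, proliferation and stress survival.

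RNA sequencing covered 2 established human prostate cancer cell lines. DU145 cells, grown in DMEM with serum, carried either a non-target hairpin (shCON, 3 libraries) or a short hairpin RNA against PAX6 (shPAX6, 3 libraries, genotype label PAX6 knockdown), both delivered as stable lentiviral lines. LNCaP cells were untreated (control, 1 library) or were an enzalutamide-resistant line kept in 20 µM of this antiandrogen drug (LNCaP-ENZ, 1 library), for which the series gives 30 days of treatment. Nothing in the labels says whether the numbered DU145 libraries came from separate cultures or which hairpin each shPAX6 library carried, so their p-values measure the spread between these libraries only, which may be technical.

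The targeted gene was read first. PAX6, a paired box factor, measured 0.839, 1.23 and 1.57 FPKM (fragments scaled by transcript length and library size, a level per length) with shCON and 0.0153, 0.274 and 0.0778 FPKM with shPAX6. Each shPAX6 library lay below each shCON library. On the log2 scale the difference was -2.69, with an adjusted p of 0.054 in limma. The summed FPKM was 470857 to 485479 per shCON library and 448901 to 570790 per shPAX6 library, and the read depth of the DU145 libraries is unknown. Library shPAX6 1 stood apart, differing from the other two of its group by a root mean square of 0.65 and 0.97 log2 units over the tested features, against 0.38 to 0.39 among the shCON libraries. Epithelial markers summed to 1546 to 1677 FPKM in shCON and 1165 to 1834 FPKM in shPAX6 libraries. Of the 10 markers, 6 were tested, with KLK2, KLK3 and HOXB13 among those under the expression filter. Of the tested markers, 3 were higher and 3 lower in shPAX6 cells, with a median log2 fold change of -0.12. Only 1 of the 6 was called, beside 1.2% of all tested features. This was CDH1 (E-cadherin), which fell by 2.28 log2 units (limma, adjusted p = 0.033). It was named after its value was seen, and its call was lost without shCON 1 or shCON 3, where 0 features were called. Fibroblast, leukocyte and endothelial marker lists each summed to under 1 FPKM in every DU145 library. The LNCaP libraries held 20468001 and 17945722 counts, of which the small nuclear RNA RN7SK took 12.3% and 13.0%. PAX6 had 11 counts in LNCaP control and 4 in LNCaP-ENZ cells, near the floor of 3 counts. In these bulk samples, fewer cells that express a gene and less RNA per cell cannot be told apart.

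The 8 genes lie on separate parts of the genome (GRCh37). FOS (ENSG00000170345) spans chr14:75745529-75748933, FOSB (ENSG00000125740) chr19:45971253-45978437, FOSL1 (ENSG00000175592) chr11:65659520-65668044 and FOSL2 (ENSG00000075426) chr2:28615315-28640184, each with 4 exons in its canonical transcript. JUN (ENSG00000177606) at chr1:59242517-59249720, JUNB (ENSG00000171223) at chr19:12902300-12904129 and JUND (ENSG00000130522) at chr19:18390504-18392432 are genes of 1 exon, and ATF3 (ENSG00000162772) spans chr1:212738676-212794119 with 4 exons. The whole of JUNB (1830 bases) lies inside the locus of HOOK2 on the opposite strand. The whole of FOSB (7185 bases) likewise lies inside that of ERCC1. These are overlaps of whole gene spans, and shared exon bases were not examined. Reads from any shared exon bases cannot be told apart where counting ignored strand, which the sources used here do not state. FOSL2 and ATF3 overlap noncoding genes that neither table lists.

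Immediate early promoters are compact, and the sequences just upstream of the start sites show how the members differ. The 90 bases before the start are printed for the 6 FOS and JUN genes in the RefSeq promoter table (GRCh38.p14, 5′ to 3′ on the gene's strand), with capitals marking the cAMP response element half-site TGACG, which reads CGTCA on the other strand, the variant TGACATCA known from the JUN promoter, the TATA letters TATAAA and the CCAAT letters.
FOS, chr14:75278738-75278827, plus strand: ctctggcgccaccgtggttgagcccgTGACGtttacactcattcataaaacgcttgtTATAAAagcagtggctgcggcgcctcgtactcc
FOSB, chr19:45467906-45467995, plus strand: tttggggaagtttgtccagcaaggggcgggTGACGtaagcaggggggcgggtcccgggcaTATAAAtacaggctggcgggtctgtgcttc
JUNB, chr19:12791396-12791485, plus strand: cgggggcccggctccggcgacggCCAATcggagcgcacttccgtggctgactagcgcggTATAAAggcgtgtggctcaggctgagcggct
JUN, chr1:58784048-58784137, minus strand: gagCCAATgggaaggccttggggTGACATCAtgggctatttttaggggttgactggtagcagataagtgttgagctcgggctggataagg
JUND, chr19:18281623-18281712, minus strand: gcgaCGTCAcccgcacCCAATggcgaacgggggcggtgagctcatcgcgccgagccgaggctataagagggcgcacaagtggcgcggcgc
FOSL2, chr2:28392768-28392857, plus strand: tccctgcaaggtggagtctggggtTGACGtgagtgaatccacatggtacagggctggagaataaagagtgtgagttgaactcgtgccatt

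TATAAA began 33, 30 and 31 bases before the start of FOS, FOSB and JUNB, and these letters were not in the windows of JUN, JUND and FOSL2. FOS and FOSB were also alike in their half-site, with TGACG beginning 64 and 60 bases before the start, and FOSL2 held the same letters at 66 bases. On both strands, TATAAA was present in 11.5%, TGACG in 24.6%, CCAAT in 34.6% and TGACATCA in 2.61% of the 35116 promoter windows of 300 bases (250 before and 50 after the start). The AP-1 motif TGANTCA, held by 7.71% of all windows, was found in FOSL2 alone among the 7 members with a window, and the full element TGACGTCA (1.85% of windows, and overlapping the half-site) in JUND alone, 200 bases before the start. A match describes letters in a window and not binding.

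In DU145 cells the AP-1 pool was led by FOSL1, and the main difference between the hairpins was a lower JUNB. JUNB, an immediate early JUN subunit that can hold JUN in check, measured 48.2, 63.4 and 67.7 FPKM with shCON and 32.6, 26.3 and 28.2 FPKM with shPAX6. The highest shPAX6 library lay below the lowest shCON library, and the means were 59.8 ± 10.2 and 29.1 ± 3.21 FPKM (SD, n = 3 each). JUNB fell by 1.03 log2 units (SE 0.17, 95% interval -1.42 to -0.64), with an adjusted p of 0.041 in limma over all 13574 features averaging 0.5 FPKM or more. It was the only 1 of the 7 tested members past the threshold of 0.05, beside 1.2% of all tested features, or 1.02% in the lower direction. Of all 163 calls, 24 were higher and 139 lower, against 100 and 122 after a GC correction per library, 74 and 162 after quantile normalization and 28 and 72 after median centring. An exact permutation of the 6 libraries gave p = 0.1 for JUNB, the smallest that 3 against 3 allows.

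**Figure D1:**
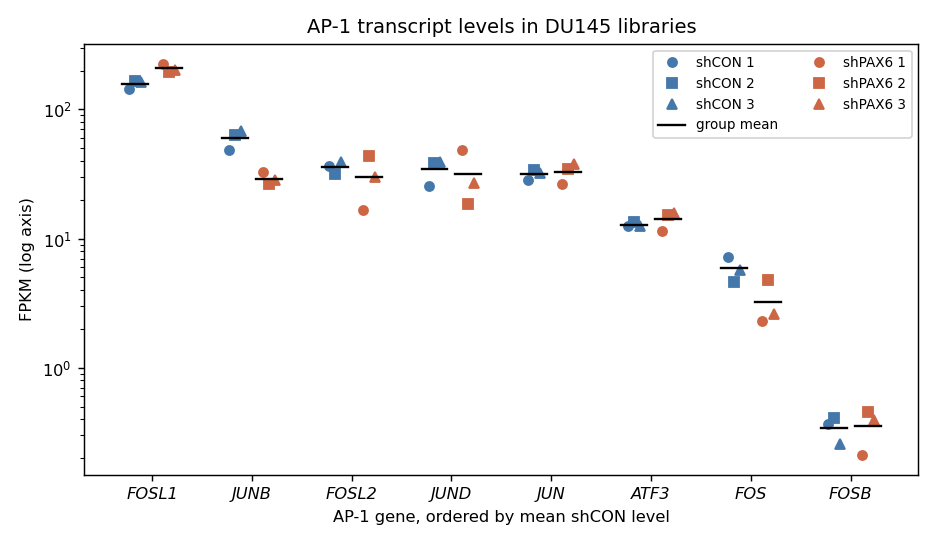
FPKM of the 8 AP-1 genes in each DU145 library on a log axis, with shCON in blue, shPAX6 in orange, marker shapes for the library number and black bars for the means of 3. JUNB is lower and FOSL1 higher in every shPAX6 library than in any shCON library, and the groups of the other 6 genes overlap.

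The JUNB call rested on a narrow margin. Among other settings, it was lost without shCON 1 (adjusted p = 0.14), shCON 2 (0.27), shCON 3 (0.29) or shPAX6 3 (0.20), with no filter on low values (0.088), without an intensity trend (0.058) and after median centring (log2 fold change -0.85, adjusted p = 0.15). Fold changes in this table followed GC content (Spearman rho -0.36 over 12009 genes, not independent of each other), and the longest JUNB transcript has 64.9% GC against a median of 48.3%. After a GC correction per library the JUNB log2 fold change was -0.63 (limma, adjusted p = 0.047). HOOK2, the gene on the opposite strand, moved in the same direction, from 8.56, 10.4 and 12.0 FPKM in shCON to 7.29, 5.19 and 8.46 FPKM in shPAX6 libraries. Its log2 fold change was -0.57 (limma, adjusted p = 0.24), and its part in the JUNB value was not tested.

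FOSL1, the FOS subunit tied to invasive epithelial cancers, was the most abundant member in every DU145 library. It measured 143, 166 and 162 FPKM in shCON and 227, 194 and 202 FPKM in shPAX6 libraries. Every shPAX6 library lay above every shCON library, as did 6.7% of the tested features, while 20% lay apart in the lower direction like JUNB, and 26.7% in either. The log2 fold change of 0.40 (95% interval 0.094 to 0.70) did not pass the adjustment (limma, adjusted p = 0.18), and the exact permutation p was 0.1. With the GC correction per library it was 0.72, with an adjusted p of 0.043 in limma.

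FOS, the prototype immediate early subunit, measured 7.27, 4.63 and 5.75 FPKM in shCON and 2.32, 4.74 and 2.59 FPKM in shPAX6 libraries. Libraries shPAX6 1 and shPAX6 3 were below all shCON libraries, and shPAX6 2 was level with the lowest of them. The log2 fold change of -0.90 (95% interval -1.62 to -0.18) missed the threshold (limma, adjusted p = 0.19), and without shPAX6 2 it was -1.21 with an adjusted p of 0.030. Leaving out any other library gave no call, and over all 6 omissions the log2 fold change ran from -1.21 to -0.71 and the adjusted p in limma from 0.030 to 0.56. FOSB, the other rapidly induced FOS gene, stayed between 0.211 and 0.453 FPKM in all 6 libraries and did not reach the filter.

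The remaining members gave no call, and 2 of them varied mainly among the shPAX6 libraries. FOSL2 measured 36.6, 31.8 and 39.3 FPKM in shCON and 16.8, 43.7 and 30.2 FPKM in shPAX6 libraries. JUND, the constitutive JUN subunit, measured 25.6, 38.5 and 39.3 FPKM in shCON and 48.5, 18.5 and 27.1 FPKM in shPAX6 libraries. Library shPAX6 1 was thus the lowest for FOSL2 and the highest for JUND, and shPAX6 2 the reverse. The log2 fold changes were -0.35 for FOSL2 and -0.22 for JUND (limma, adjusted p = 0.63 and 0.79), and the JUND value was 0.27 after the GC correction. JUN, the founding JUN subunit, ranged from 26.6 to 37.5 FPKM over the 6 libraries with a log2 fold change of 0.048, and the stress-induced ATF3 from 11.5 to 15.7 FPKM with 0.13 (limma, adjusted p = 0.92 and 0.74). The 95% intervals of all 4 included 0. Over the 7 tested members, 3 fold changes were above and 4 below 0 with a median of -0.22, beside a median of -0.12 over all tested features.

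**Figure D2:**
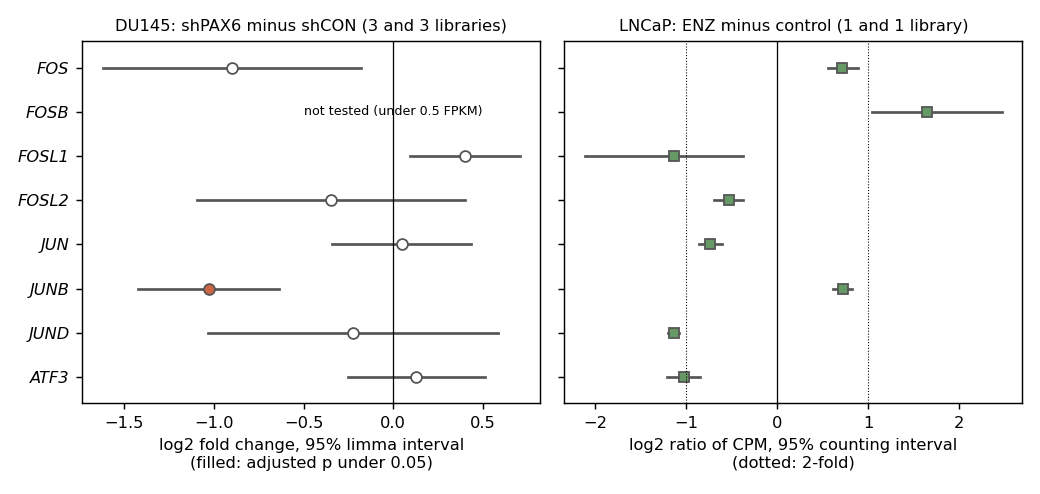
Left, log2 fold change of FPKM (shPAX6 minus shCON) with 95% limma intervals, filled where the adjusted p is under 0.05. Right, log2 ratio of CPM (LNCaP-ENZ minus control) with 95% counting intervals and dotted lines at 2-fold. JUNB is at -1.03 on the left and at 0.72 on the right, and FOSL1 at 0.40 and -1.13.

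Per length, the shCON order of mean levels was FOSL1, JUNB, FOSL2, JUND, JUN, ATF3, FOS and FOSB. Neighbours were separated in all 3 libraries except FOSL2, JUND and JUN, whose FPKM values overlapped. FOSL1 made up 45.2% to 47.5% of the summed FPKM of the 8 genes in shCON and 57.5% to 62.1% in shPAX6 libraries, and JUNB 16.0% to 18.8% and 7.80% to 8.93%. Ratios within a library do not depend on how libraries were scaled. The FOSL1 to JUNB ratio was 2.40 to 2.97 in shCON and 6.95 to 7.37 in shPAX6 libraries, and the JUNB to JUN ratio 1.71 to 2.10 and 0.752 to 1.23. By mean alone, JUNB stood in the second place in shCON and the fifth in shPAX6 cells. There it averaged 29.1 FPKM, behind JUN (32.8), JUND (31.4) and FOSL2 (30.2). The shPAX6 values of these genes overlapped, so their order in shPAX6 cells does not go beyond the spread.

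**Figure D3:**
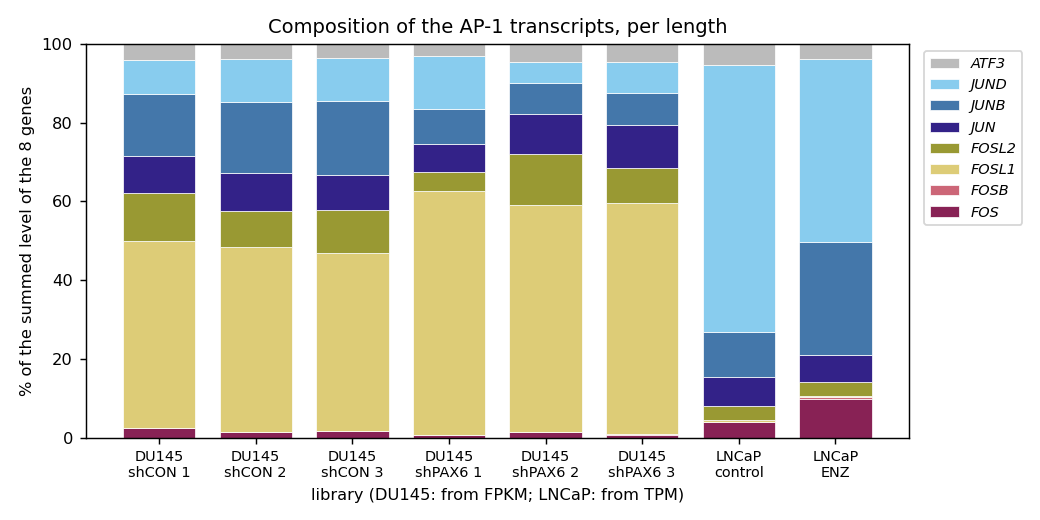
Stacked bars give each gene's percentage of the summed per-length level of the 8 genes in every library, from FPKM in DU145 and TPM in LNCaP. FOSL1 is the largest share in all 6 DU145 libraries and JUND in both LNCaP libraries.

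By profile over the 6 libraries, the genes nearest to JUNB were IRF5 and CXXC5. Their root mean square differences from it were 0.051 and 0.066 in centred log2(FPKM + 0.1), against a median of 0.59 over 12050 genes. The nearest of so many genes lie far below the median by selection, so such distances alone show no link. RBM43 and FBXO36 were nearest to FOS (0.048 and 0.075), VAMP1 and SHLD1 to FOSL1 (0.040 and 0.057), WSB1 and KDM2A to FOSL2 (0.031 and 0.036), CLDN3 and SDHAF1 to JUND (0.054 and 0.060), WRNIP1 and FAM185A to JUN (0.056 and 0.059), and SLC35E3 and PSMD2 to ATF3 (0.039 and 0.041). JUN and ATF3 were close to each other (0.075), ATF3 ranking 11th from JUN and JUN 46th from ATF3. No other pair of members was alike to this degree, and the member nearest to JUNB, FOS, ranked 3834th.

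In LNCaP cells the pool was led by JUND, and the libraries differed in opposite directions among members. There is 1 library per arm, so the values compare these libraries, no test was possible, and intervals cover counting error only. FOSB, FOS and JUNB were higher in LNCaP-ENZ cells, and JUND, FOSL1, ATF3, JUN and FOSL2 were lower. Of all genes whose mean CPM reached 1, 5571 were likewise higher and 9196 lower. FOSB had 24 counts in control and 70 in LNCaP-ENZ cells. Scaled by the library total (CPM, plus 0.1), its log2 ratio was 1.65 (95% interval 1.05 to 2.47). It was the only 1 of the 8 members at least 2-fold higher, beside 1.84% of the 14767 genes whose mean CPM reached 1. FOS went from 512 to 739 counts (log2 ratio 0.72, 0.55 to 0.88) and JUNB from 1247 to 1802 counts (0.72, 0.62 to 0.83). Of the 7 members with a window, only these 3 have TATAAA just upstream of the start, and FOSL1 has no window. ATF3, which was lower, holds TATAAA in a window 230 bases before the start. A link between these letters and the levels was not tested. HOOK2, opposite JUNB, was also higher (295 and 367 counts, log2 ratio 0.50), whereas ERCC1, opposite FOSB, was level (1275 and 1140 counts, 0.028).

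JUND, the most counted member, had 7971 counts in control and 3171 in LNCaP-ENZ cells, which gave -1.14 on the log2 scale (95% interval -1.20 to -1.08). ATF3 went from 806 to 346 counts (-1.03, -1.22 to -0.85) and FOSL1 from 45 to 17 counts (-1.13, -2.11 to -0.38). These 3 were at least 2-fold lower, as were 9.57% of all such genes. JUN, with 1506 and 793 counts (-0.73), and FOSL2, with 821 and 497 counts (-0.53), were lower by less. The counting intervals of 3 members lay above and of 5 below 0, beside 21.6% and 42.3% of all such genes, and the median log2 ratio was -0.63 for the members and -0.15 for all. With that median set to 0, FOSB alone remained past 2-fold, JUND standing at -0.99, FOSL1 at -0.98 and ATF3 at -0.87, and TMM factors left the same single gene.

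Per length, JUND stood at 207 TPM (a level per length, scaled to the same sum in every library) in control cells, 5.91 times the level of JUNB at 35.0 TPM, and at 88.5 TPM in LNCaP-ENZ cells, 1.63 times JUNB at 54.4 TPM. The JUND share of the summed TPM of the 8 genes was 67.8% in control and 46.5% in LNCaP-ENZ cells, that of JUNB 11.5% and 28.5%, and that of FOS 3.96% and 9.85%. The sum itself was 306 and 191 TPM. FOS stood in the fifth place in control and the third in LNCaP-ENZ cells, there ahead of JUN at 13.1 TPM and ATF3 at 7.45 TPM, while FOSL1 (1.31 and 0.531 TPM) and FOSB (0.324 and 1.02 TPM) held the last places and exchanged them.

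The lines thus held unlike AP-1 pools. Because the tables were normalized separately, levels were set side by side only as percentiles within a library, over the 18808 symbols in both. FOSL1 stood at percentiles 97.3 to 98.4 in the DU145 libraries and at 44.6 and 40.3 in LNCaP control and LNCaP-ENZ cells. JUND stood at 79.7 to 91.1 in DU145 and at 99.0 and 97.3 in LNCaP cells, and FOS at 52.6 to 64.7 and at 77.5 and 85.6. JUN (85.0 to 88.7 in DU145, 87.2 and 80.7 in LNCaP) differed little between the lines. These are descriptions with no test, and the line cannot be told apart from the table.

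**Figure D4:**
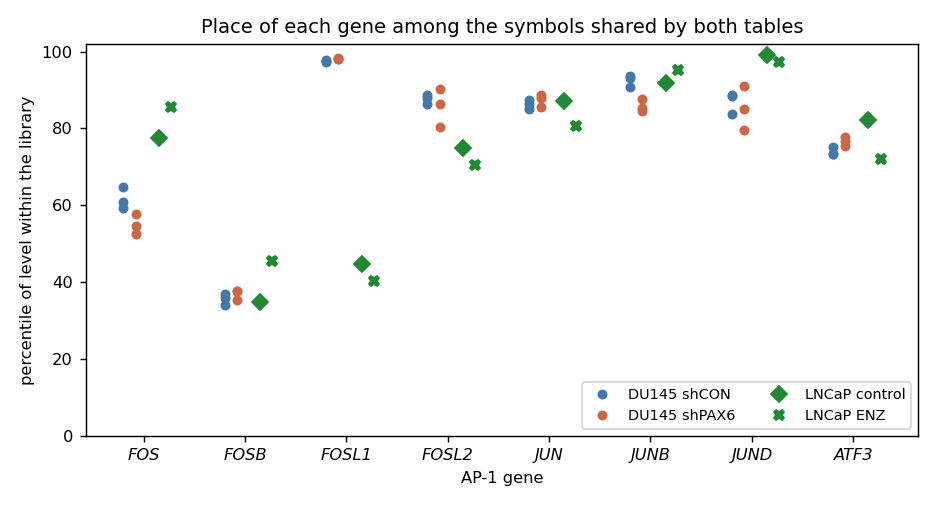
Percentile of each AP-1 gene's level within each library, over symbols shared by both tables, with DU145 shCON in blue, DU145 shPAX6 in orange, LNCaP control as green diamonds and LNCaP-ENZ as green crosses. FOSL1 is near the top in DU145 and under the middle in LNCaP libraries, and FOS is higher in both LNCaP libraries than in all DU145 libraries.

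The genes around AP-1 were read from 6 lists, which were also chosen with earlier results of these data known. In DU145, 4 list genes passed the adjustment, 3 lower and 1 higher in shPAX6 cells, out of 145 distinct list genes tested (2.76%, beside 1.2% of all tested features). For the list counts at an unadjusted p under 0.05 in limma, the background was 1917 lower and 563 higher of all 13574 tested features. Of 26 tested other immediate early genes, 2 fell and 0 rose in limma (5 lower and 5 higher at an unadjusted p under 0.05), with a median log2 fold change of 0.025. NR4A1, an orphan nuclear receptor, measured 32.0, 38.3 and 40.7 FPKM in shCON and 13.3, 14.1 and 16.5 FPKM in shPAX6 libraries (log2 fold change -1.33, limma, adjusted p = 0.020). EGR1, the zinc finger factor induced beside FOS, measured 22.3, 17.9 and 19.4 FPKM in shCON and 4.56, 9.92 and 6.25 FPKM in shPAX6 libraries (-1.58, limma, adjusted p = 0.048). Both were lower in every shPAX6 library than in any shCON library, as were 20% of the tested features. NR4A2 had a log2 fold change of -1.34 that did not pass (limma, adjusted p = 0.068), and CYR61 and GADD45A, secreted matricellular and growth arrest genes, had 0.60 and 0.59 without passing (0.085 and 0.092).

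Among 36 tested genes of the MAPK cascade and serum response factors, 1 fell and 0 rose in limma (4 and 1 at an unadjusted p under 0.05, median -0.0996). This was MAPK3, which codes for ERK1, at 65.9, 69.5 and 70.3 FPKM in shCON and 42.0, 39.4 and 45.5 FPKM in shPAX6 libraries (-0.70, limma, adjusted p = 0.045). The other largest values were -0.88 for MAPK11, -0.71 for MAP2K7, 0.60 for MAP2K3 and 0.46 for MAPK8, none of which passed. Of 16 tested genes of ERK feedback and output, 0 passed in limma and 3 had an unadjusted p under 0.05, with a median of 0.030, HMGA2 at 1.09, CCND1 (cyclin D1) at 0.72, SPRED3 at -0.51 and DUSP7 at -0.15.

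Among 29 tested AP-1 target genes, 1 rose and 0 fell in limma (8 and 3 at an unadjusted p under 0.05, median 0.15). HBEGF, a ligand of the EGF receptor, measured 12.7, 11.8 and 12.9 FPKM in shCON and 22.3, 27.9 and 28.3 FPKM in shPAX6 libraries (1.05, limma, adjusted p = 0.028). The groups did not overlap, as for 6.7% of tested features in the higher direction, and HBEGF was opposite in direction to JUNB. The calls of all 4 list genes were lost without shCON 1, shCON 2, shCON 3 or shPAX6 3, and those of EGR1 and MAPK3 also with a pseudocount of 0.01, without an intensity trend or with the GC correction. EGR1 was lost with no filter too, and MAPK3 with median centring. The collagenase MMP1 (1.05), the membrane protease MMP14 (-0.89) and the cytokine IL6 (-0.94) did not pass. Of 26 tested bZIP partners, 0 passed in limma and 6 had an unadjusted p under 0.05 (median -0.014), the largest values being -1.10 for CEBPD, -0.78 for CEBPB, 1.00 for CREB5 and 0.82 for DDIT3. Of 14 integrated stress response genes, 0 passed in limma and 4 had an unadjusted p under 0.05 (median 0.25), with DDIT3, also on this list, PPP1R15A at 0.58, DDIT4 at -0.23 and XBP1 at -0.11.

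**Figure D5:**
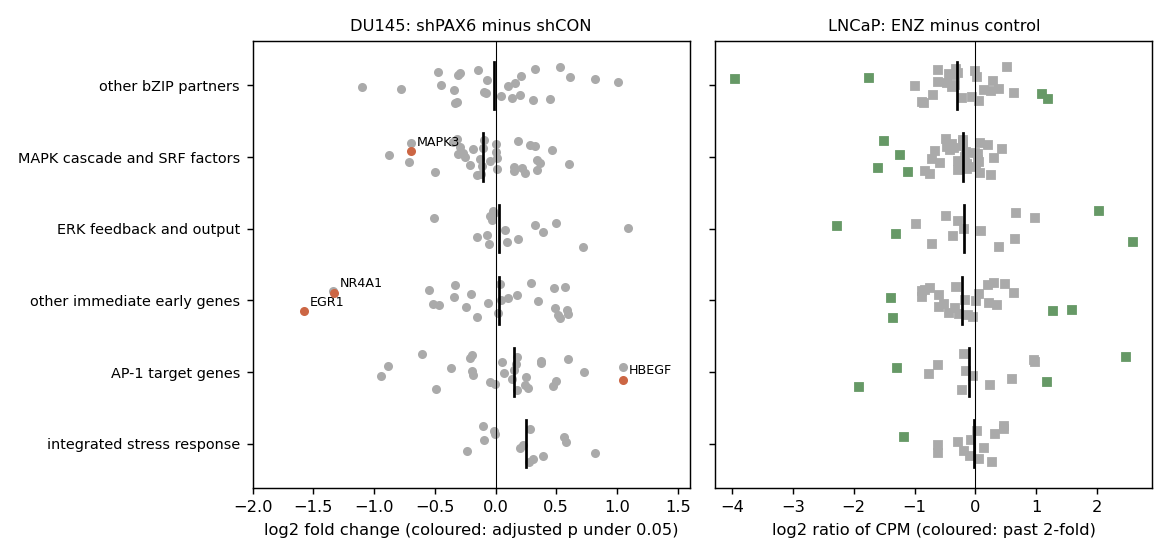
Each point is a gene of 1 of 6 lists around AP-1, by log2 fold change in DU145 (left, coloured where the adjusted p is under 0.05) and log2 ratio of CPM in LNCaP (right, coloured past 2-fold), with black bars for list medians. The 4 called DU145 genes are EGR1 and NR4A1 among immediate early genes, MAPK3 and HBEGF, and the list medians lie between -0.0996 and 0.25.

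In LNCaP cells, 21 of 131 distinct list genes above the CPM filter were past 2-fold (16.0%, beside 11.4% of all such genes), 8 higher and 13 lower. Of 26 other immediate early genes, 2 were higher and 2 lower. EGR1 had 301 counts in control and 792 in LNCaP-ENZ cells (log2 ratio 1.58), and DUSP2 stood at 1.28, while KLF4 (-1.38) and ARC (-1.36) were lower. NR4A1, called in DU145, had 849 and 405 counts (-0.88). By any amount, 10 of the 26 genes were higher and 16 lower, beside 5571 and 9196 of all genes above the filter. Of 15 genes of ERK feedback and output, DUSP5, an ERK phosphatase, had 310 and 1635 counts (2.58) and SPRY4 18 and 70 counts (2.03), and PHLDA1 (-2.27) and ETV4 (-1.31) were lower. Of 36 MAPK cascade genes, 0 were higher and 4 lower, with RPS6KA3 at -1.50, the highest values being 0.44 for MKL1 and 0.30 for MAP3K8.

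Of 14 AP-1 target genes in LNCaP cells, TNC (tenascin C, 117 and 580 counts, log2 ratio 2.48) and HBEGF (78 and 157 counts, 1.18) were higher, and CXCL8 (-1.92) and LAMB3 (-1.30) lower. Of 28 bZIP partners, MAF had 188 and 9 counts (-3.95) and MAFA stood at -1.75, while ATF5 (1.19) and BATF2 (1.09) were higher. Of 14 integrated stress response genes, the cystine transporter SLC7A11 was lower (-1.17), with HSPA5 at -0.62 and VLDLR and XBP1 at 0.47 each. List medians lay between -0.30 and -0.022, beside -0.15 over all genes above the filter.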

How the data were processed

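RNA-seq of 8 libraries was used (3 DU145 shCON, 3 DU145 shPAX6, 1 LNCaP control, 1 LNCaP-ENZ), grouped by the sample labels. Chromatin accessibility (6 ATAC-seq samples) was not used here. According to the study's methods, reads were aligned to GRCh37 with HISAT2 and quantified with StringTie, and DESeq2 was used for differential expression. The labels name other library kits and read lengths beside those of the methods, and HISAT2 and STAR without their roles. For DU145 the deposited values are taken as FPKM from StringTie, although the table does not name the unit. For LNCaP the authors deposited whole-number counts per gene and TPM. As 1 fragment is worth more FPKM in a shallower library and DU145 depth is unknown, low FPKM are less certain.

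DU145 values were tested with limma 3.58.1 (R 4.3.3, intensity trend) on log2(FPKM + 0.1), so changes of low genes are understated, for a mean of at least 0.5 FPKM, two-sided, with Benjamini-Hochberg adjustment over all tested features and a threshold of 0.05. LNCaP counts were scaled to the library total as log2(CPM + 0.1), with exact Clopper-Pearson 95% intervals. TMM factors came from edgeR 4.0.16. Both steps were tested on simulated data. Genes were annotated from GENCODE lifted to GRCh37, and promoters of 7 of the 8 members from RefSeq. Alternatives were pseudocounts, filters, centring, quantile normalization, eBayes without a trend, GC correction (loess), a replicate block, scaling factors and libraries left out. The members and lists were chosen with earlier results of these data known. Named genes are the members, PAX6, genes overlapping members, the 2 nearest profiles of each member, and per list the 2 largest changes in each direction and any called gene. CDH1, and NR4A1 in LNCaP cells, were named after their values were seen. Some genes that this rule covers are not reported here.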

Additional observations from a re-analysis of the deposited data

How the results depend on the processing

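In DU145, JUNB kept its direction under all 16 alternatives (log2 fold change -1.18 to -0.63) and its call under 7 of them. The number of members called, 1 as reported, was 0 with no filter, median centring, eBayes without a trend (3 unadjusted in limma each time, JUNB adjusted p = 0.058 without a trend) or a replicate block, 2 (FOSL1 and JUNB) with the GC correction, 0 with block and GC correction, and 0 to 2 with 1 library left out. Calls over all features, 163 as reported, were 100 with median centring (28 higher and 72 lower, against 24 and 139), 222 with the GC correction (100 and 122), 236 with quantile normalization (74 and 162) and 0 to 924 with 1 library left out (0 without shCON 1 or shCON 3, 5 without shCON 2, 924 without shPAX6 1, 899 without shPAX6 2, 10 without shPAX6 3). In limma, 1614 and 1242 features had an unadjusted p under 0.05 without shCON 1 and shCON 3. List genes called, 4 as reported, were 7 and 2 with pseudocounts of 1 and 0.01, 9 with quantile normalization, 13 with the GC correction and 0 to 26 with 1 library left out. HBEGF and NR4A1 were called under every alternative that kept all libraries and had no block. Without a call, JUND changed sign with the GC correction (0.27, also with the block) and without shPAX6 2 (0.097), FOSL2 without shPAX6 1 (0.023), and JUN without shCON 1 (-0.030) or shPAX6 3 (-0.056). With 1 library left out, their ranges were -0.59 to 0.097 for JUND, -0.66 to 0.023 for FOSL2 and -0.056 to 0.19 for JUN. The cause was not tested.

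Libraries with the same number did not deviate together (correlations -0.17, -0.37 and 0.052). These values cannot show whether such libraries shared a culture or batch, which the labels do not state. A replicate block called 0 features in limma (1568 at an unadjusted p under 0.05), 0 members (2 unadjusted, JUNB adjusted p = 0.22) and 0 list genes (25 unadjusted). The block with the GC correction called 7 features, 0 members (2 unadjusted, JUNB adjusted p = 0.25) and 0 list genes (41 unadjusted), so the block ended the calls of JUNB, EGR1, NR4A1, MAPK3 and HBEGF.

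In LNCaP, all 8 members kept their direction. Members past 2-fold, 4 as reported, were 2 with a pseudocount of 1, 1 with TMM factors, 1 with the median log2 ratio set to 0 and 2 with a CPM filter of 5. Genes past 2-fold, 1684 as reported, were 1054 with a pseudocount of 1, 6120 with no filter and 874 with the filter of 5, and list genes 33 with no filter against 21. FOSL1 and FOSB have under 100 counts in each LNCaP library, which limits their ratios most.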
